A study of Mus musculus with 42 samples.

Results

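The immunoglobulin heavy variable segments (Ighv) are the genes from which the antigen-binding end of the antibody heavy chain is made. They were chosen here as every gene whose symbol, matched from its Ensembl identifier, begins with Ighv, which gave 185 of the 47719 genes listed for each library. Their expression was followed in 3 spleen preparations, labelled B, T and Non-BT cells, of mice that carried Psmb8 G201V/G201V (homozygous) or Psmb8 +/+ (wild type). Psmb8 encodes a catalytic subunit of the immunoproteasome, and G201V is the founder variant of Nakajo-Nishimura syndrome, an autoinflammatory disease. The study asked which genes are deregulated in each cell type. The 42 libraries formed 12 groups. Each cell type had 3 old homozygous, 3 old wild-type, 4 young homozygous and 4 young wild-type libraries, all from untreated animals. Age in weeks, strain, sex and cell separation method are not given in the sources used here. The young wild-type libraries numbered 4 carry the genotype label Psmb9 +/+, although their titles name them wild type. Libraries of the same age and genotype that bear the same number in their titles were taken as preparations from 1 animal, which the labels do not state. That gives 14 animal names, and p-values measure the spread between these samples.

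As background, a developing B cell joins 1 Ighv segment to a D and a J segment of the heavy chain locus, and all descendants of that cell transcribe the same joined segment. A resting B cell carries few heavy chain transcripts, whereas a plasma cell, which secretes antibody, carries very many. The mix of segments in RNA therefore reflects both how many cells carry each segment and how much each of those cells transcribes. In bulk RNA, fewer cells of a type and less RNA per cell cannot be told apart.

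All 185 segments lie on chromosome 12 of GRCm38 between positions 113572927 and 116010093, 183 of them on the minus strand and 2 on the plus strand. They fall into 16 families, of which family 1 with 93 genes, family 5 with 22, family 8 with 16 and family 2 with 11 were the most numerous. GENCODE annotates 113 as functional V genes, 70 as V pseudogenes and 2 as other V-like genes. In these libraries 33 segments were listed at 0 throughout, 142 reached 1 FPKM in at least 1 library and 46 reached it in all 42. FPKM is the number of fragments per transcript length, scaled to the library total. Functional genes reached 1 FPKM far more often, with 110 of 113, than pseudogenes, with 31 of 70. Pseudogenes together held between 0% and 0.802% of the summed Ighv FPKM of a library. The annotated exons of a segment are short, with a median length of 351 bases, so a value of 1 FPKM rests on few fragments.

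The segments that the results turn on are shown here by the first 300 bases of their V exon on the coding strand, taken from the GENCODE M21 transcripts of GRCm38. Ighv5-9 made up most of the Ighv RNA of 1 old homozygous animal, and Ighv5-4 and Ighv5-17 are members of the same family that led in other animals. For both of these, capitals mark the bases that differ from Ighv5-9 in an alignment of the whole exons. Ighv1-53 and Ighv11-2 belong to other families and are shown in lower case throughout.
Ighv5-9 (ENSMUSG00000095285), chr12:113661776-113662075, minus strand: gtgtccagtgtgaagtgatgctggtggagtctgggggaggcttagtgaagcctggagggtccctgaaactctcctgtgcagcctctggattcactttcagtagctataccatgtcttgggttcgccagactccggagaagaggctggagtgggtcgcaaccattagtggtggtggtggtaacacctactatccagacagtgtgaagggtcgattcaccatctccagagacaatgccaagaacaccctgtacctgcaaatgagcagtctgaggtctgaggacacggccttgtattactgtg
Ighv5-4 (ENSMUSG00000095612), chr12:113597453-113597752, minus strand: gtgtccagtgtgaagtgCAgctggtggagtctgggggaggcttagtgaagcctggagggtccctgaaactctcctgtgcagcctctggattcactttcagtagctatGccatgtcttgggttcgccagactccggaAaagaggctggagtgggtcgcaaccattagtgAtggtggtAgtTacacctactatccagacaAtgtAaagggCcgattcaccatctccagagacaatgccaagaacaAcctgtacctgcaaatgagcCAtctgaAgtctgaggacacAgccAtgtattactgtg
Ighv5-17 (ENSMUSG00000095571), chr12:113859154-113859453, minus strand: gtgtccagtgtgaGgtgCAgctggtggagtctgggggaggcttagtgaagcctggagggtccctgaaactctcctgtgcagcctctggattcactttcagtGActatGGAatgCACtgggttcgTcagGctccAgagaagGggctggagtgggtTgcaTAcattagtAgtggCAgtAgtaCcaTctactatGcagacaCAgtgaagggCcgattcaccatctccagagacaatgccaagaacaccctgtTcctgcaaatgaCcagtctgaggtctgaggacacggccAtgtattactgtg
Ighv1-53 (ENSMUSG00000093894), chr12:115158408-115158707, minus strand: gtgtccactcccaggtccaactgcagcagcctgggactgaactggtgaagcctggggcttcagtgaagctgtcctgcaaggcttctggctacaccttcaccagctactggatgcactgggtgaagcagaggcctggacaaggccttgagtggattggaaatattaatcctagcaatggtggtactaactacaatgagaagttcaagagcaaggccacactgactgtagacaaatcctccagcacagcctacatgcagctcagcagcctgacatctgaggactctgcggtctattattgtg
Ighv11-2 (ENSMUSG00000096108), chr12:114048248-114048547, minus strand: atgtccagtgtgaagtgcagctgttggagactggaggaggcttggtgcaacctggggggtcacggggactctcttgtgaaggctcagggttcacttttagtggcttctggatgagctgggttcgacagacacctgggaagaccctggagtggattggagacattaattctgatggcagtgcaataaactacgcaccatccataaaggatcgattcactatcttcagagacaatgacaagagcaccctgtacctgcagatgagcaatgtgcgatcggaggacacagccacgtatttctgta

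Ighv5-4 is identical to Ighv5-9 over 94.5% of the aligned exon and Ighv5-17 over 88.9%. Among the 113 functional V genes, the closest to Ighv5-9 is Ighv5-6, with 15 differing positions. Pseudogenes were not compared. Over the 113 V exons compared, the median identity to the nearest other segment was 95.1%, and 14 genes had a neighbour at 98% or more. Ighv1-72, named below, is 99.0% identical to Ighv1-62-3, and Ighv11-2 is 98.7% identical to Ighv11-1. How reads were divided between such copies is not given in the sources used here, and rearranged antibody genes can also carry somatic mutations, so values of near-identical segments are uncertain.

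The preparations differed in their markers as labelled. Summed over 7 B cell genes, including Cd79a, B cell libraries held 4886 to 6197 FPKM, T cell libraries 35.02 to 185 FPKM and non-BT libraries 51.0 to 195 FPKM. Cd3e, a chain of the T cell receptor complex, stood at 261 to 382 FPKM in T cells and 0.555 to 2.80 FPKM in B cells. Non-BT cells from old homozygous animal 2 held 72.1 FPKM of Cd3e, the highest of the non-BT libraries. Ighd, the constant region of naive B cells, stood at 971 to 1767 FPKM in B cells and at 1.82 to 32.7 FPKM in T and non-BT cells. An estimated 9490000 to 25780000 fragments underlay each library.

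In young animals, Ighv RNA made up a smaller share of homozygous than of wild-type libraries in all 3 preparations, with no overlap between the groups. The summed Ighv FPKM of young homozygous B cells was 1.31%, 1.23%, 1.29% and 1.49% of all FPKM, against 1.72%, 2.29%, 2.59% and 2.58% in young wild-type B cells. The means were 1.33% ± 0.113 in homozygous and 2.29% ± 0.412 in wild-type B cells (SD, n = 4 each). In T cells the share was 0.238%, 0.204%, 0.148% and 0.243% in young homozygous libraries, against 0.653%, 0.871%, 0.904% and 1.13% in young wild-type ones. Every homozygous T cell library thus lay below every wild-type one, and the wild-type mean was 4.27 times the homozygous mean. In non-BT cells the share was 0.128%, 0.131%, 0.115% and 0.213% in young homozygous libraries, against 0.543%, 0.662%, 0.747% and 1.16% in young wild-type ones. The wild-type mean was there 5.30 times the homozygous mean. These sums are descriptions and were not tested. Young libraries 3 and 4 come from a later series of library names than young libraries 1 and 2 and all old ones, and the genotypes lay apart within both series in each preparation.

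In old animals the genotypes overlapped. The share in old homozygous libraries 1, 2 and 3 was 1.23%, 3.98% and 1.88% in B cells, against 1.91%, 2.57% and 3.09% in old wild-type libraries. In T cells it was 2.60%, 7.30% and 1.35% in old homozygous libraries, against 1.29%, 5.20% and 2.62% in old wild-type libraries. In non-BT cells it was 3.46%, 7.92% and 1.28% in old homozygous libraries, against 1.85%, 3.76% and 1.93% in old wild-type libraries. Animal 2 had the highest share of the old homozygous group in all 3 preparations. Without the old animals numbered 2, a choice made after the values were seen, the old B cell means were 1.56% in homozygous and 2.50% in wild-type animals. The T cell means were then 1.98% in homozygous and 1.95% in wild-type animals, and the non-BT means 2.37% and 1.89%.

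**Figure D1:**
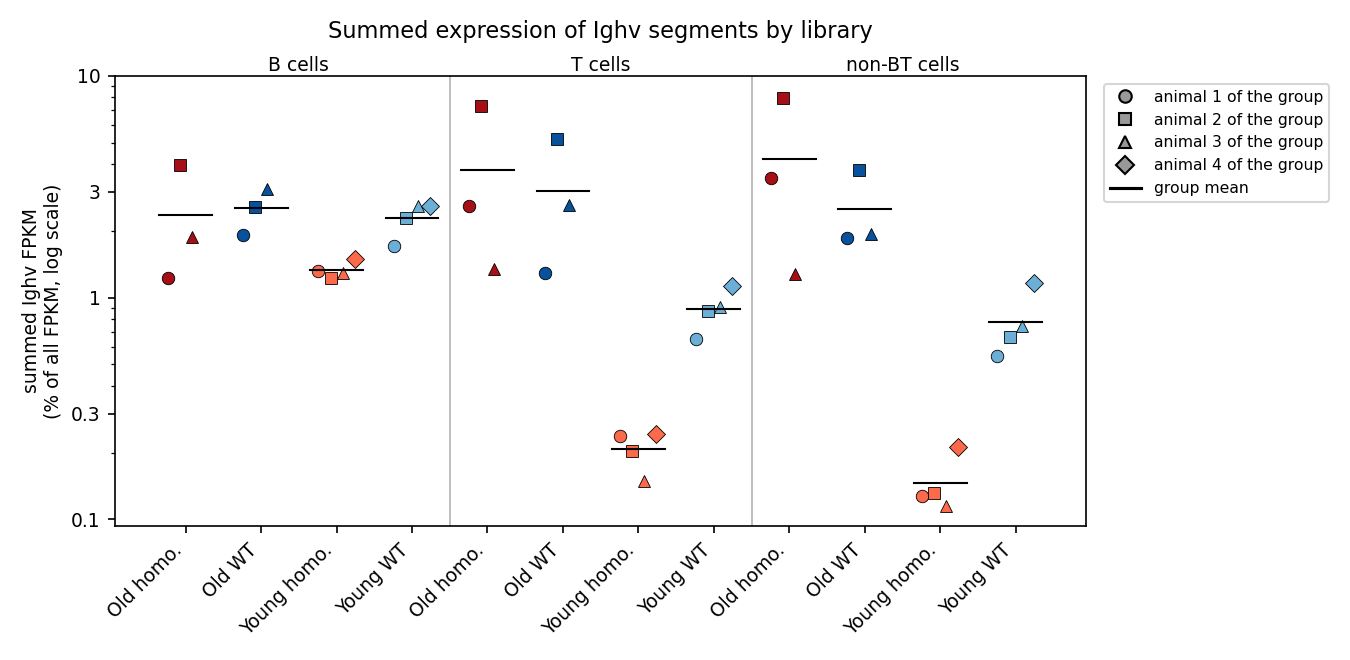
Summed Ighv FPKM as a percent of all FPKM of each library, on a log scale, by cell preparation, age and genotype. Points are libraries, with the symbol giving the animal number within its group, and bars are group means; young homozygous libraries lie below young wild-type libraries in each preparation, from 0.115% to 1.49%, and the old genotypes overlap.

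The markers of plasma cells moved with the sums in young animals. Summed over 10 plasma cell genes, including Jchain and Mzb1, homozygous B cells held 1027 to 1472 FPKM and wild-type B cells 1989 to 3204 FPKM. The ranges were 300.2 to 429 FPKM in homozygous and 795 to 1287 FPKM in wild-type T cells, and 525 to 629.7 FPKM in homozygous and 915 to 1637 FPKM in wild-type non-BT cells. Among the 10, 6 in non-BT cells were lower in every homozygous than in every wild-type library, beside 7.91% of all genes. In T cells and in B cells 5 were, beside 3.44% and 5.63% of all genes. In the limma fit described below, 3 of the 10 were called lower in non-BT cells, beside 1.46% of all genes. None of the 10 was called in T or B cells, beside 0% and 0.0734% of all genes called in either direction. None was listed at 0 throughout a group. Macrophage markers moved in the same direction in B cell preparations, with 192 to 342 FPKM over 8 genes in homozygous and 725 to 966 FPKM in wild-type libraries. In T cell preparations they held 56.8 to 129 FPKM in homozygous and 297 to 419 FPKM in wild-type libraries, and in the non-BT preparation 196 to 211 FPKM in homozygous and 279 to 336 FPKM in wild-type libraries. All 8 in B and T cells and 3 of the 8 in non-BT cells were apart in this way, beside the shares of all genes given above. Summed T cell markers were also apart in young non-BT cells, at 151 to 273 FPKM in homozygous and 301 to 389 FPKM in wild-type libraries. Of these 8 genes only 2, Cd4 and Cd8b1, were themselves apart, beside 7.91% of all genes, and the rest, including Cd3e and Trac, overlapped. Limma called 1 of the 8 lower, beside 1.46% of all genes. Summed B cell markers overlapped between the young genotypes in B and non-BT cells. In young T cells they were 35.02 to 46.9 FPKM in homozygous and 48.0 to 57.0 FPKM in wild-type libraries, with no overlap. None of the 7 genes was itself lower in every homozygous than in every wild-type T cell library, beside 3.44% of all genes. The part of these cells in the Ighv values was not tested.

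Gene by gene, values were compared as log2(FPKM + 1) with limma, and p-values were adjusted by the Benjamini-Hochberg method over all genes tested in a cell type, with a threshold of 0.05. A gene entered the test where 3 or more of 14 libraries per preparation reached 1 FPKM. This left 121 Ighv genes for B cells, 107 for T cells and 110 for non-BT cells. Of those, 1 for B cells, 17 for T cells and 23 for non-BT cells stayed under 1 FPKM throughout the young homozygous group and entered through the other groups. A log2 fold change on this scale understates the change of low genes. Some genes entered only through 1 group, in which they are high, so the filter favours 1 direction of change for them. In the comparison of the young genotypes, 7 of the 107 T cell genes, 4 of the 110 non-BT genes and 3 of the 121 B cell genes entered only through 1 of the groups compared, and none of these was called. Counts of signs over the tested genes are therefore descriptions, and are also given below without such genes.

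In this fit young non-BT cells were the only preparation with Ighv genes past the threshold between the genotypes. There 9 of 110 Ighv genes were lower in homozygous animals and none was higher, beside 1.46% of all genes called lower and 1.69% called in either direction. Among the tested genes 104 had a negative log2 fold change, beside 52.5% of all genes, and 48 had an unadjusted p under 0.05, beside 13.9% of all genes. The fold change is homozygous minus wild type, and the median was -1.56 over the Ighv genes and -0.02 over all genes. Without the genes that entered only through 1 of the groups compared, 100 of 106 were negative. In 26 genes every homozygous library lay below every wild-type one, beside 7.91% of all genes. The count of 9 was sensitive to single libraries. Without young homozygous libraries 1, 2 or 3 it was 5, 4 and 2, without young wild-type libraries 3 or 4 it was 4 and 2, and without old homozygous library 3 or old wild-type library 2 it was 17 and 15.

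Ighv14-2 had 4.26, 8.81, 1.85 and 1.60 FPKM in young homozygous non-BT cells, against 32.4, 104, 96.1 and 111 FPKM in young wild-type ones. The groups were well apart, and the gene fell by 4.15 ± 0.65 on the log2 scale (SE, limma adjusted p = 0.00882). Its adjusted p was under 0.05 in all 24 alternative analyses, with a range of 0.000977 to 0.0372. Ighv6-3 had 16.5, 63.5, 38.8 and 26.9 FPKM in homozygous cells, against 160.2, 143, 198 and 229 FPKM in wild-type cells. It fell by 2.43 ± 0.40 (SE, limma adjusted p = 0.0105) and passed in all 24 alternatives as well. Ighv3-6 had 10.02, 13.5, 3.41 and 52.6 FPKM in homozygous cells, against 88.8, 190.0, 637 and 784 FPKM in wild-type cells. Homozygous library 4 was the highest of its group and still below all wild-type libraries, and the gene fell by 4.45 ± 0.82 (SE, limma adjusted p = 0.0182). Ighv1-53 had 13.2, 34.2, 23.1 and 45.3 FPKM in homozygous cells, against 649, 125, 247 and 357 FPKM in wild-type cells. It fell by 3.42 ± 0.61 (SE, limma adjusted p = 0.0170), and wild-type library 1 was the highest. Each of these segments encodes the variable domain of a heavy chain, and they come from families 14, 6, 3 and 1.

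The other genes past the threshold in young non-BT cells were Ighv1-54, Ighv1-74, Ighv1-84, Ighv1-72 and Ighv7-1. Ighv1-54 had 0.304, 0.301, 1.58 and 7.97 FPKM in homozygous cells, against 13.0, 231, 31.2 and 68.4 FPKM in wild-type cells, and fell by 4.38 ± 0.81 (SE, limma adjusted p = 0.0182). Ighv7-1 was among the more abundant segments of homozygous cells, at 98.5, 32.3, 52.6 and 33.1 FPKM, against 374, 355, 145 and 181 FPKM in wild-type cells. The log2 fold changes of the 9 genes ran from -4.45 to -2.30. Ighv1-53, Ighv3-6, Ighv1-54, Ighv1-72, Ighv7-1 and Ighv1-84 had an adjusted p under 0.05 in 20, 18, 18, 17, 14 and 9 of 24 alternatives. Ighv1-74 was the 1 called gene whose genotypes overlapped, since homozygous library 4 at 21.3 FPKM lay above wild-type library 1 at 12.4 FPKM.

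In young T cells and B cells no Ighv gene passed in the same fit. In T cells limma called 0 of 107, beside 0% of all genes, while 40 of the 107 had an unadjusted p under 0.05, beside 8.67% of all genes. Negative log2 fold changes were found for 98 of the 107, beside 49.9% of all genes, with a median of -1.28, and for 92 of 100 without the genes that entered through 1 group. In 22 genes every homozygous library lay below every wild-type one, beside 3.44% of all genes. The smallest adjusted p, for Ighv5-16, was 0.0949. Without old wild-type library 2 or old homozygous library 2 the count was 3 and 1. In B cells limma called 0 of 121, beside 0.0734% of all genes, while 33 had an unadjusted p under 0.05, beside 9.39% of all genes. Negative changes were found for 97 of the 121, beside 53.2% of all genes, with a median of -0.52, and for 96 of 118 without such genes. Of them 19 genes were lower in every homozygous than in every wild-type library, beside 5.63% of all genes. Leaving out old homozygous libraries 1 or 2, or old wild-type libraries 1 or 3, gave counts of 2, 1, 1 and 1.

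Ighv1-53 was the B cell segment with the smallest p. It had 230.1, 200.4, 291 and 280.1 FPKM in young homozygous B cells, against 1140.0, 746, 714 and 882 FPKM in young wild-type B cells. The genotypes did not overlap, and the log2 fold change was -1.78 ± 0.36 (SE, limma adjusted p = 0.0786). Its adjusted p ran from 0.000814 to 0.231 over 24 alternatives and was under 0.05 in 8 of them. Whether the genotype effect in young animals differed between non-BT and B cells was tested in a fit over all 42 libraries with the animal as a block. None of 125 Ighv genes passed, beside 0.911% of all genes, and 22 had an unadjusted p under 0.05, beside 11.6% of all genes. Leaving out young homozygous non-BT libraries 2 or 4, or young wild-type non-BT libraries 1 or 2, gave 2, 1, 1 and 1.

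In old animals limma called no Ighv gene between the genotypes. The count for B cells was 0 of 121, beside 0.00815% of all genes. For T cells it was 0 of 107 and for non-BT cells 0 of 110, beside 0% of all genes for both. At an unadjusted p under 0.05 the 3 counts were 14, 5 and 11, beside 10.1%, 3.81% and 5.78% of all genes. Ighv1-38 in B cells, with a log2 fold change of -1.83 ± 0.47 (SE, limma adjusted p = 0.302), and Ighv8-10 in non-BT cells, with -1.63 ± 0.38 (SE, limma adjusted p = 0.443), had the smallest p. Same-numbered old B cell libraries of the genotypes deviated together. With the number as a block, Ighv11-2 passed in old B cells, with a log2 fold change of -1.44 ± 0.16 (SE, limma adjusted p = 0.0161), against -1.44 ± 0.51 (SE, limma adjusted p = 0.363) without the block. The block fit was the 1 of 24 alternatives in which it passed, and over them the adjusted p ran from 0.0161 to 0.725. Ighv11-2 had 29.8, 136 and 62.2 FPKM in old homozygous B cells, against 96.3, 347 and 158 FPKM in old wild-type ones. It was lower in the homozygous library of each number, and the groups overlapped. Leaving out old homozygous library 2 gave 1 call in B cells, and leaving out young wild-type library 4 gave 1 in non-BT cells. A test of the genotype by age interaction called none in any cell type, beside 0% of all genes, with 16, 24 and 41 Ighv genes at an unadjusted p under 0.05 for B, T and non-BT cells, beside 7.07%, 3.87% and 5.32% of all genes. In non-BT cells 98 of the 110 differences were positive, beside 52.0% of all genes, with a median of 1.83, and leaving out old homozygous library 3 gave 4 calls.

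The age comparison gave most of the calls. In homozygous T cells, 41 of 107 Ighv genes were higher in old than in young animals and none was lower, beside 0.993% of all genes called higher and 1.14% called in either direction. All 107 had a positive log2 fold change, beside 46.7% of all genes, with a median of 3.21. Of the 107, 9 would not have entered the test without the old homozygous group, the group in which they are high. Among these, 1 also needed the young homozygous group to enter. None of the 9 was called. Without them all 98 left were positive, with a median of 3.30. At an unadjusted p under 0.05 there were 88 of the 107, beside 14.8% of all genes. In 89 genes every old library lay above every young one, beside 6.50% of all genes. In homozygous non-BT cells, 55 of 110 were higher and none was lower, beside 1.42% of all genes called higher and 2.16% called in either direction. Positive changes were found for 107 of the 110, beside 46.6% of all genes, with a median of 3.63. Here 7 entered only through the old homozygous group, and none of these was called. Without them 100 of 103 were positive, with a median of 3.77, and in 78 every old library lay above every young one. At an unadjusted p under 0.05 there were 91, beside 16.0% of all genes. In 80 genes every old library lay above every young one, beside 6.29% of all genes. Of the 41 T cell genes, 35 (85.4%) were also among the 55 non-BT genes, of which they made up 63.6%. The summed share in old homozygous T cells averaged 3.75% ± 3.14 (SD, n = 3), which was 18.02 times the 0.208% ± 0.0435 (SD, n = 4) of young homozygous T cells. In non-BT cells the old homozygous mean of 4.22% ± 3.38 was 28.8 times the young homozygous mean of 0.147% ± 0.0447. Both ratios rested in part on old homozygous animal 2, and without it they were 9.49 for T and 16.2 for non-BT cells.

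These calls rested in part on single libraries. In T cells the count of 41 was 8 without old homozygous library 1 and 11 without old homozygous library 2. It was 20, 21 and 16 without young homozygous libraries 1, 2 and 3. In non-BT cells the count of 55 was 25 without old homozygous library 1 and 31 without old homozygous library 2. The summed shares did not overlap between the ages in either preparation.

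Ighv9-4 had 108, 151 and 191 FPKM in old homozygous non-BT cells and was listed at 0, 14.7, 0 and 0 in young homozygous ones. Its log2 fold change was 6.21 ± 0.87 (SE, limma adjusted p = 0.00309), and it passed in all 23 alternatives. Ighv1-55 had 1066, 1521 and 211 FPKM in old homozygous non-BT cells, against 29.4, 9.40, 15.4 and 17.98 FPKM in young homozygous ones. Old library 3 was the lowest of the old group and still above all young libraries. In T cells Ighv1-55 had 698, 977 and 218 FPKM in old homozygous animals, against 22.2, 19.1, 4.87 and 21.6 FPKM in young homozygous animals. The log2 fold change there was 5.07 ± 0.76 (SE, limma adjusted p = 0.00748), and it passed in 22 of 23 alternatives. Ighv3-1 and Ighv3-5, both of family 3, rose in T cells by 4.97 ± 0.65 and 4.95 ± 0.63 (SE, limma adjusted p = 0.00392 for both) and passed in all 23 alternatives.

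Called genes were spread over the whole locus. In homozygous non-BT cells the 55 genes lay 175 to 2577 kb from Ighm, where the 185 segments together span 150.2 to 2587 kb, and genes of families 1, 3, 5, 8, 9 and 13 were among those with the largest changes. Ighv8-8 had a log2 fold change of 6.50 ± 1.14, Ighv1-50 of 5.89 ± 0.97 and Ighv13-2 of 5.79 ± 0.89 (SE, limma adjusted p = 0.00958, 0.00654 and 0.00467), and they passed in 21, 23 and 23 of 23 alternatives. No pseudogene was called in any comparison.

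**Figure D2:**
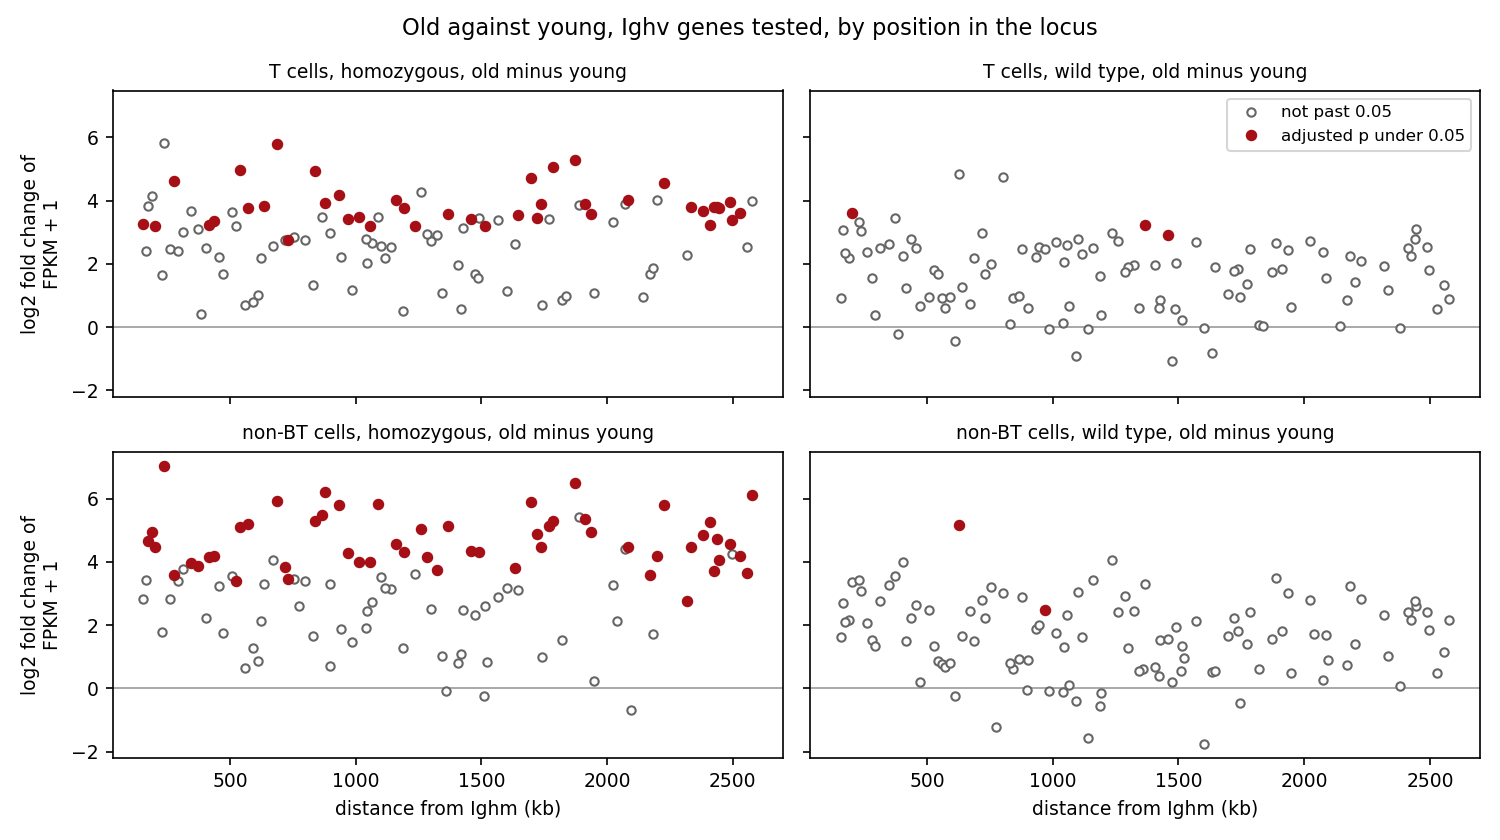
Log2 fold change of FPKM + 1, old minus young, for each tested Ighv gene against its distance from Ighm in kilobases, for T cells (top) and non-BT cells (bottom) of homozygous (left) and wild-type (right) animals. Filled points have a limma adjusted p under 0.05, which are 41 and 55 genes in homozygous and 3 and 2 genes in wild-type animals.

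In wild-type animals the same comparison gave fewer calls, although old and young shares did not overlap. The mean share was 3.04% ± 1.99 in old and 0.890% ± 0.195 in young wild-type T cells, and 2.51% ± 1.08 in old and 0.778% ± 0.268 in young wild-type non-BT cells. The old mean was 3.41 times the young mean in T cells, or 2.197 times without old wild-type library 2, and 3.23 times in non-BT cells. In T cells 3 of 107 Ighv genes were higher in old animals, beside 0.205% of all genes called higher and 0.227% in either direction, and none was lower. Positive changes were found for 98, beside 48.6% of all genes. Without the genes that needed 1 or both of the groups compared to enter the test, 91 of 98 were positive. There were 50 that had an unadjusted p under 0.05, beside 10.6%, and 23 that did not overlap, beside 5.98%. Ighv1-26 had 470.4, 1135 and 1065 FPKM in old wild-type T cells, against 70.3, 87.8, 74.9 and 127 FPKM in young ones. It rose by 3.23 ± 0.41 (SE, limma adjusted p = 0.0203). Ighv5-6 and Ighv1-36 rose by 3.60 ± 0.64 and 2.92 ± 0.52 (SE, limma adjusted p = 0.0354 and 0.0364). Ighv1-26, Ighv1-36 and Ighv5-6 passed in 18, 10 and 8 of 23 alternatives. Without old wild-type library 1 the count was 17, and without old homozygous library 2 it was 5. It was 1 without old wild-type library 2, young wild-type libraries 1 or 4, or young homozygous libraries 1 or 3. It was 0 without old wild-type library 3 or young wild-type libraries 2 or 3.

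In wild-type non-BT cells 2 of 110 Ighv genes were higher in old animals, Ighv11-2 and Ighv6-3, beside 0.0883% of all genes called higher and 0.199% in either direction, and none was lower. Positive changes were found for 99, beside 43.0% of all genes. Without the genes that needed 1 or both of the groups compared to enter the test, 94 of 102 were positive. There were 48 that had an unadjusted p under 0.05, beside 15.9%, and 30 that did not overlap, beside 4.92%. Ighv11-2 had 299, 1439 and 76.3 FPKM in old wild-type non-BT cells, against 1.65, 14.9, 9.74 and 12.7 FPKM in young ones, and rose by 5.18 ± 0.92 (SE, limma adjusted p = 0.0398). Ighv6-3 had 652, 1733 and 875 FPKM in old wild-type cells, against 160.2, 143, 198 and 229 FPKM in young ones, and rose by 2.47 ± 0.43 (SE, limma adjusted p = 0.0398). They passed in 7 (Ighv11-2) and 9 (Ighv6-3) of 23 alternatives. The count was 0 without old wild-type library 2, young wild-type libraries 1, 2 or 3, or young homozygous library 3. It was 1 without young homozygous library 2 and 4 without old homozygous library 3. The difference between the age effects of the genotypes is the interaction given above, which passed for no Ighv gene.

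B cells showed no Ighv call with age. Limma called 0 of 121 in homozygous B cells, beside 0.0163% of all genes, and 0 of 121 in wild-type B cells, beside 0% of all genes. At an unadjusted p under 0.05 the counts were 15 in homozygous and 13 in wild-type B cells, beside 14.3% and 6.26% of all genes. Leaving out old homozygous library 3 gave 1 call in homozygous B cells. The old and young shares of summed Ighv FPKM overlapped in both genotypes.

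Plasma cell markers were also higher in old animals in T and non-BT cells. Over the 10 genes, old homozygous T cells held 1782 to 4466 FPKM and young homozygous T cells 300.2 to 429 FPKM. Old homozygous non-BT cells held 1961 to 4592 FPKM and young homozygous non-BT cells 525 to 629.7 FPKM. Of the 10, 9 (T cells) and 7 (non-BT cells) were higher in every old than in every young homozygous library, beside 6.50% and 6.29% of all genes. Limma called 4 (T cells) and 6 (non-BT cells) of the 10 higher, beside 0.993% and 1.42% of all genes. In wild-type animals the sums were 1739.7 to 6322 FPKM in old and 795 to 1287 FPKM in young T cells, and 2426 to 4636 FPKM in old and 915 to 1637 FPKM in young non-BT cells. Of the 10, 5 (T cells) and 8 (non-BT cells) were apart in the same way, beside 5.98% and 4.92% of all genes. Limma called 0 and 1 of the 10 higher, beside 0.205% and 0.0883% of all genes. In B cells the sums overlapped between the ages, at 1102 to 3190 FPKM in old and 1027 to 1472 FPKM in young homozygous libraries. In wild-type B cells they were 2338 to 3979 FPKM in old and 1989 to 3204 FPKM in young libraries. Summed B cell markers were 74.0 to 158 FPKM in old and 35.02 to 46.9 FPKM in young homozygous T cells, and 90.2 to 195 FPKM in old and 51.0 to 65.5 FPKM in young homozygous non-BT cells. The part of either cell type in the Ighv values was not tested.

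Among 34 other genes of heavy chain expression, recombination and secretion, 27 were tested in non-BT cells and 28 in T cells. In young non-BT cells 4 were lower in homozygous animals and none was higher, beside 1.46% of all genes called lower. These were Mzb1 and Jchain, which act in antibody assembly and secretion, Ighm, the constant region of IgM, and Dntt, the enzyme that adds bases at the joints of rearranged segments. Jchain had 145, 150.2, 117 and 214 FPKM in homozygous cells, against 432, 584, 673 and 1059 FPKM in wild-type cells, and fell by 2.08 ± 0.32 (SE, limma adjusted p = 0.00854). With age in homozygous non-BT cells, 10 were higher, beside 1.42% of all genes, among them Ighm, Igha, Ighg2b and Ighg2c, and 1, the transcription factor gene Ikzf1, was lower. In homozygous T cells, 5 were higher with age, beside 0.993% of all genes, namely Cd79a, Mzb1, Jchain, Ighm and Igha. Ighm stood at 6344, 11770.2 and 5633 FPKM in old homozygous non-BT cells, against 710.3, 776, 705 and 957 FPKM in young homozygous ones. In wild-type non-BT cells 2 were higher with age, Jchain and Ighm, beside 0.0883% of all genes, and none was lower. Limma called none of the 28 in wild-type T cells with age, none of the 28 in young or old T cells between the genotypes, and none of the 27 in old non-BT cells. In B cells 30 of the list were tested and none was called in any comparison.

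Usage, the share of a library's summed Ighv FPKM held by 1 segment, showed how evenly the segments were drawn on. In young homozygous B cells it was nearly the same in all 4 animals. The 5 leading segments by mean were Ighv5-17 with 4.07% ± 0.441, Ighv6-3 with 4.06% ± 0.294, Ighv9-3 with 3.61% ± 0.213, Ighv3-6 with 3.29% ± 0.348 and Ighv1-64 with 3.20% ± 0.433 (SD, n = 4). In young wild-type B cells the leading segments were Ighv5-4 with 5.65% ± 7.20 and Ighv3-6 with 5.64% ± 2.48, followed by Ighv1-53, Ighv6-3 and Ighv9-3. The spread of Ighv5-4 came from animal 3, in which it held 16.4%.

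The effective number of segments, 1 divided by the sum of squared usage, would equal the number of segments if all were used alike. It was 49.5, 51.0, 49.5 and 48.6 in young homozygous B cells, against 37.0, 43.1, 21.4 and 41.9 in young wild-type B cells. The groups did not overlap, with means of 49.6 ± 0.980 and 35.8 ± 9.99 (SD, n = 4 each). In young T cells it was 28.4, 38.6, 31.1 and 42.5 in homozygous libraries, against 11.3, 23.3, 21.8 and 32.4 in wild-type ones, and these groups overlapped. In young non-BT cells it was 24.4, 35.2, 27.0 and 41.3 in homozygous libraries, against 14.3, 25.3, 29.5 and 37.0 in wild-type ones, again with overlap. In old B cells the number was 50.3, 3.24 and 38.6 in homozygous libraries, against 31.9, 20.4 and 21.2 in wild-type ones. The mean difference, homozygous minus wild type, was 6.23. Without the old animals numbered 2 the means were 44.5 in homozygous and 26.5 in wild-type B cells. In old T cells the number was 39.0, 2.06 and 25.7 in homozygous libraries, against 23.0, 30.1 and 25.8 in wild-type ones. In old non-BT cells it was 38.6, 2.05 and 25.5, against 27.8, 29.5 and 28.0. The mean differences were -4.05 in T and -6.38 in non-BT cells. Without the animals numbered 2 the means were 32.3 and 24.4 in T cells and 32.1 and 27.9 in non-BT cells. The old genotypes overlapped in all 3 preparations.

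**Figure D3:**
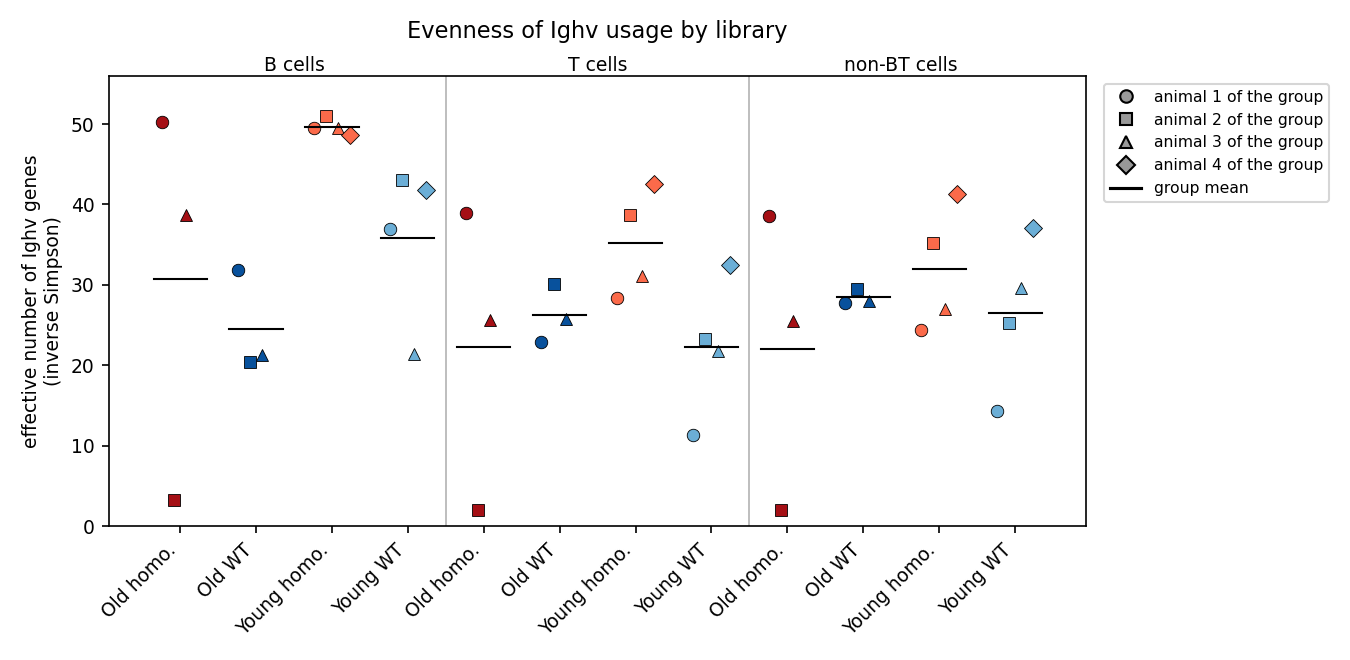
Effective number of Ighv genes (inverse Simpson number of usage) in each library, by cell preparation, age and genotype. Points are libraries, with the symbol giving the animal number, and bars are group means; young homozygous B cells lie between 48.6 and 51.0, above all young wild-type B cells, and old homozygous animal 2 lies between 2.05 and 3.24 in all 3 preparations.

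A single segment held most of the Ighv RNA in old homozygous animal 2. Ighv5-9, whose sequence opens the set above, had 65311 FPKM in its non-BT cells, 54091 FPKM in its T cells and 20085 FPKM in its B cells. That was 69.6%, 69.6% and 55.1% of the summed Ighv FPKM. In the other old homozygous animals, 1 and 3, Ighv5-9 had 289.6 and 95.5 FPKM in non-BT, 147 and 78.2 FPKM in T and 104 and 140.0 FPKM in B cell libraries. Old wild-type libraries held 82.1 to 346 FPKM. Ighv5-9 was among the 55 genes called between old and young homozygous non-BT cells, with a log2 fold change of 7.05 ± 1.61 (SE, limma adjusted p = 0.0393). Without animal 2 the log2 fold change was 4.18 with an adjusted p of 0.0293, and over 23 alternatives the adjusted p ran from 0.00449 to 0.148 and was under 0.05 in 10.

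The constant region Ighg1, of the IgG1 class, was high in the same animal. It had 73147 FPKM in non-BT cells, 58539.8 FPKM in T cells and 19109 FPKM in B cells of old homozygous animal 2. Its other old homozygous values were 7.07 to 110.0 FPKM, and old wild-type libraries held 111 to 3679.7 FPKM. In the same animal Ighm was 11770.2 to 12889 FPKM. Bulk RNA does not show whether Ighv5-9 and Ighg1 stood on the same transcripts.

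In 24 cases a segment held at least 10% of the Ighv FPKM of a library, and they involved 12 segments. They formed 16 pairs of a segment and an animal, and in 7 of these the segment led in more than 1 preparation of the animal. Ighv1-53 held 21.4% of the T cell and 16.9% of the non-BT Ighv FPKM of young wild-type animal 1. Ighv3-6 held 14.4% of the T cell and 11.3% of the non-BT values of young wild-type animal 3, and Ighv5-17 held 13.6% and 14.9% in those of old homozygous animal 3. Ighv1-9 led in B cells of old wild-type animal 2 with 17.0% and in its non-BT cells with 8.92%. In 7 other pairs the segment led in 1 preparation, such as Ighv1-54 with 12.8% in T cells of young wild-type animal 2. In young homozygous animals the cases, each leading in 1 preparation, were Ighv9-3 with 11.99% in T cells of animal 1, Ighv7-1 with 10.8% in non-BT cells of animal 1 and Ighv4-1 with 10.3% in non-BT cells of animal 3. No young homozygous B cell library had a segment above 4.65%.

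**Figure D4:**
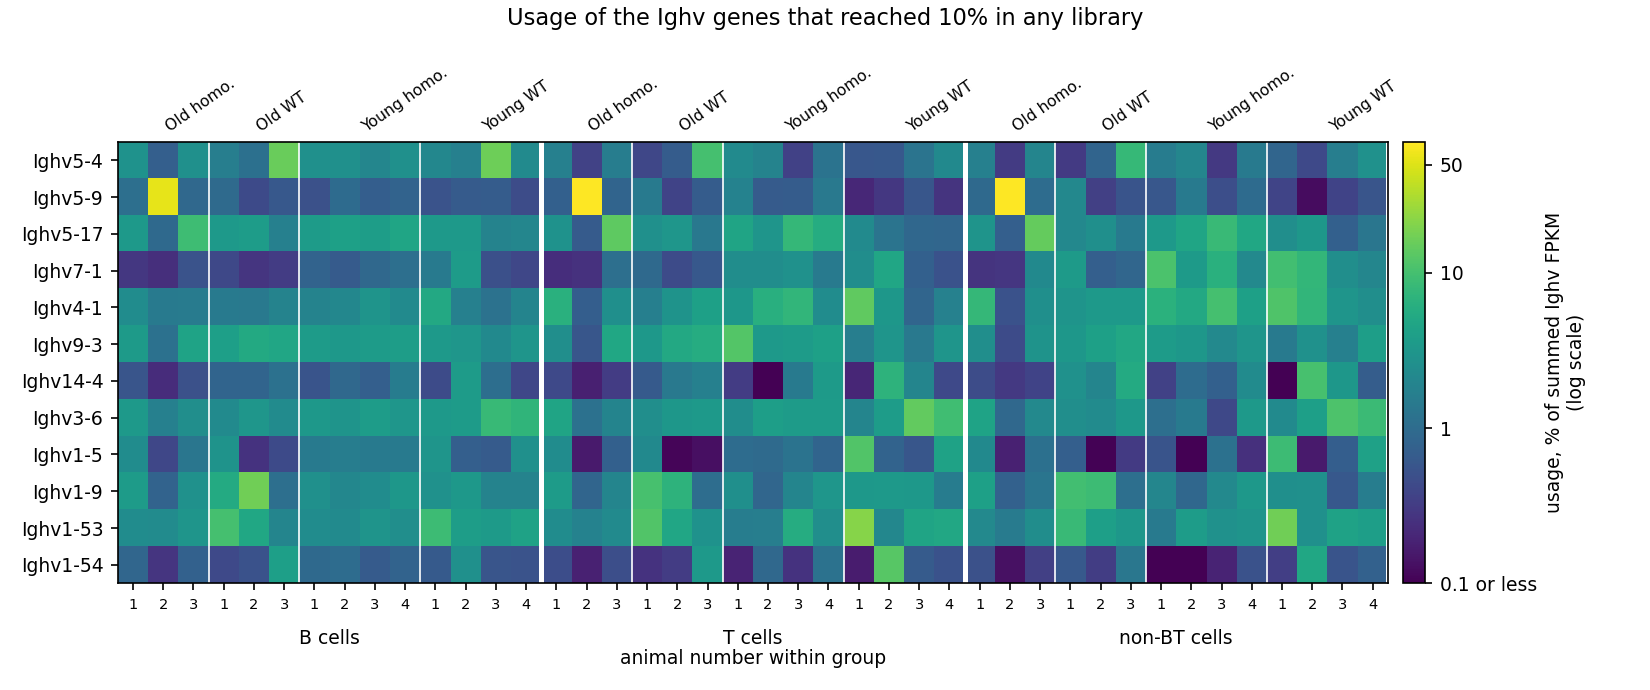
Usage of the 12 Ighv genes that reached 10% of the summed Ighv FPKM in any library, as a colour on a log scale with values of 0.1% or less drawn alike. Rows are genes in order of position, columns are libraries grouped by preparation, age and genotype and numbered by animal; Ighv5-9 at 55.1% to 69.6% stands out in the 3 libraries of old homozygous animal 2.

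Usage was shared between the preparations of an animal. The overlap of 2 libraries, the sum over segments of the smaller usage, had a median of 83.4% between T and non-BT cells of the same animal, against 60.0% between T and non-BT cells of other animals of the group. Between B and T cells the medians were 82.5% for the same animal and 64.4% for other animals, and between B and non-BT cells 77.3% and 62.9%. For 14 of 14 T cell libraries the B cell library with the highest overlap was that of the same animal, and for 14 of 14 non-BT libraries so was the best T cell library. T cell libraries matched non-BT libraries of the same animal in 13 of 14 cases, and non-BT libraries matched B cell libraries in 13 of 14. In the opposite direction the best match of a B cell library was the same animal in 11 of 14 cases among T cells and in 10 of 14 among non-BT cells. These matches are a description. Ighd and B cell markers were low in T and non-BT cells, as given above. Jchain ran from 156 to 5166 FPKM in T cell libraries and from 117 to 3709 FPKM in non-BT libraries. The part of any cell type in the shared usage was not tested.

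Between animals the overlap depended on the group. B cell libraries of different young homozygous animals overlapped by 89.2% to 90.5%, against 68.2% to 77.6% between young wild-type animals. Old homozygous B cells overlapped by 42.5% to 84.1%, the low values being those with animal 2, and old wild-type B cells by 57.9% to 69.1%. In T cells the overlap was 61.2% to 70.03% between young homozygous animals and 44.2% to 60.3% between young wild-type animals. In non-BT cells it was 62.9% to 66.8% between young homozygous and 46.0% to 65.4% between young wild-type animals, and these ranges were not apart.

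**Figure D5:**
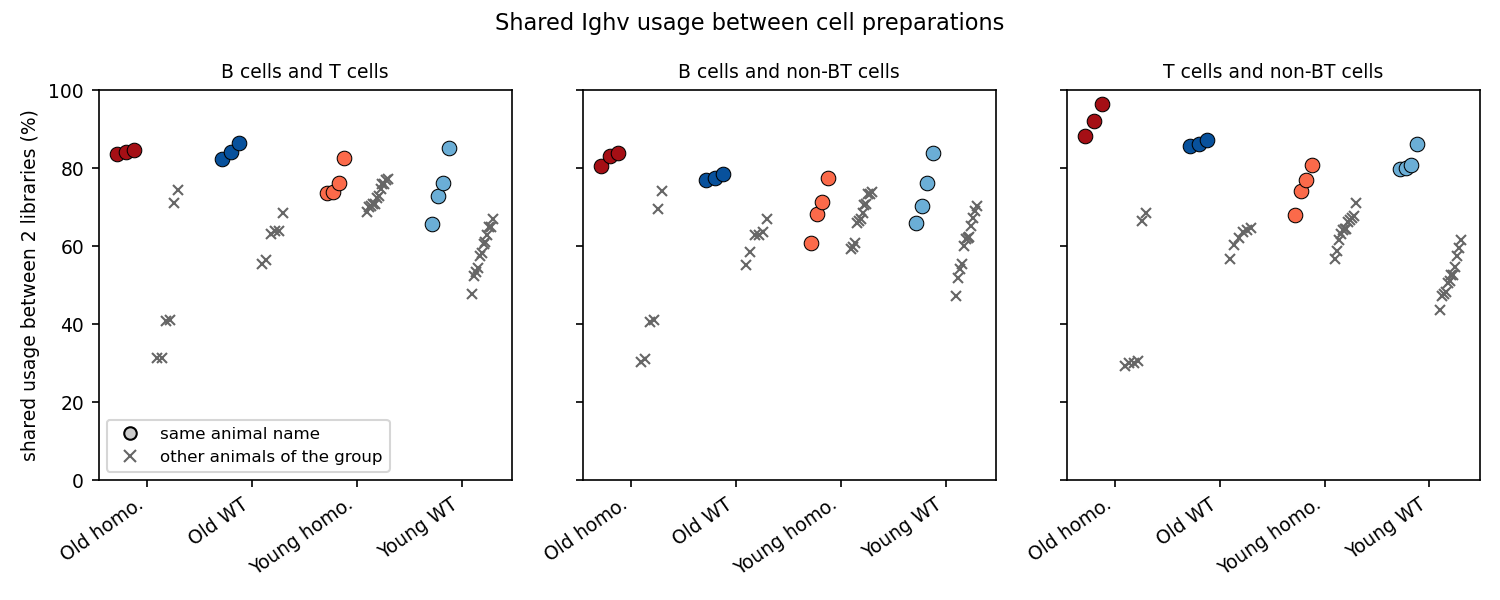
Overlap of Ighv usage in percent between libraries of 2 preparations, by age and genotype. Circles compare libraries of the same animal name and crosses libraries of other animals of the group; circles have medians of 82.5%, 77.3% and 83.4% in the panels from left to right, and crosses 64.4%, 62.9% and 60.0%.

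By family, family 1 held between 32.5% and 52.3% of the Ighv FPKM on average. It led in all groups except old homozygous T and non-BT cells, in which family 5 held 38.6% ± 29.9 and 37.5% ± 31.1 (SD, n = 3 each). That exception rested on animal 2. In animals 1 and 3 family 1 held 44.7% and 36.3% and family 5 held 15.7% and 27.8% of the T cell values, and in non-BT cells family 1 held 45.7% and 36.9% and family 5 held 13.0% and 26.9%. Without animal 2, family 5 averaged 21.7% in T and 19.99% in non-BT cells, and family 1 40.5% and 41.3%. Family 5 held more in young homozygous than in young wild-type T cells, at 16.3% ± 2.95 against 9.28% ± 2.91 (SD, n = 4 each), and in non-BT cells, at 19.0% ± 2.36 against 10.4% ± 3.11, with no overlap in either. In B cells the genotypes overlapped for this family. In old animals, family 8 was the only family of 16 whose share was higher in every homozygous than in every wild-type library of all 3 preparations. It held 3.65% to 4.997% in old homozygous and 2.25% to 2.95% in old wild-type B cells. The ranges were 2.67% to 6.43% in homozygous and 1.84% to 2.49% in wild-type T cells, and 2.59% to 6.53% in homozygous and 1.36% to 2.28% in wild-type non-BT cells. In young animals the genotypes overlapped for family 8 throughout. Family 8 was picked after the shares of all 16 families were seen, with 3 animals per old group. The 3 preparations were taken to come from the same animals, so they are not independent, and the difference was not tested.

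Family 11 consists of Ighv11-1 and Ighv11-2 and is known in mice for its use by B-1 cells that bind phosphatidylcholine. Its share was 0.969%, 1.23%, 0.833% and 1.17% in young homozygous B cells, against 0.592%, 0.612%, 0.226% and 0.525% in young wild-type B cells. In young T cells it averaged 1.49% ± 1.05 in homozygous and 0.244% ± 0.146 in wild-type animals, and in young non-BT cells 1.53% ± 0.154 in homozygous and 0.181% ± 0.113 in wild-type animals. None of these groups overlapped. Families 5 and 11 were among 16 families looked at, and their differences were not tested. Other families were also apart in places, such as family 10 in young T cells, at 4.27% to 5.56% in homozygous and 1.10% to 3.06% in wild-type libraries.

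The level of Ighv11-2 itself did not differ in the same way. It had 87.5, 105, 79.4 and 127 FPKM in young homozygous B cells, against 74.0, 116, 43.7 and 99.0 FPKM in young wild-type ones, and the groups overlapped. A share rises when the other segments fall, so the family 11 share and the lower summed Ighv RNA of young homozygous animals are not independent. With age, the family 11 share ran in opposite directions in the genotypes. It was 0.325% to 0.428% in old and 0.833% to 1.23% in young homozygous B cells, but 0.616% to 1.61% in old and 0.226% to 0.612% in young wild-type B cells. Neither pair overlapped, although the wild-type ages were apart only by 0.616% against 0.612%. The difference between the genotypes was not tested.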

How the data were processed

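Deposited values were FPKM per gene and library, 1 table per library with Ensembl identifiers. Per the submitters' processing notes, the authors used HISAT2 2.1.0, Cufflinks 2.2.1 and Cuffdiff with GRCm38.p4; the order of these steps and the division of multi-mapped reads are not given in the sources used here. Per the labels' protocols, RNA was taken with a column micro kit, cDNA was made with SMART-Seq HT and libraries with Nextera XT, which do not mark strand, so a segment and an antisense transcript cannot be told apart. No molecular identifiers are named.

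Identifiers were matched to symbols with GENCODE M21, and 47305 of 47719 matched. Groups came from the sample titles. Depth was estimated from the most common low value of FPKM times length among single-transcript genes, taken as 1 fragment, and 1 FPKM over a short segment is a few fragments, which limits low values.

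log2(FPKM + 1) was fitted per cell type over all 4 groups of libraries with limma 3.58.1 in R 4.3.3, with moderated variances and a trend, after a filter of at least 1 FPKM in at least 3 of 14 libraries. P-values were adjusted by the Benjamini-Hochberg method over all genes, with a threshold of 0.05. The test between non-BT and B cells used all 42 libraries with the animal name as a block. Replicate numbers were taken to pair libraries in old B cells, where the deviations of the 3 same-numbered pairs correlated with r between 0.190 and 0.287. This pairing comes from the data and is not stated in the labels. Usage, effective numbers and overlaps were computed in Python 3.11.15 and V exons were aligned with Biopython 1.88. The limma code was tested on simulated data.

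The rule for named genes took the called Ighv genes with the largest changes whose groups did not overlap, up to 10 per direction, the 2 with the smallest p where none was called, the 5 most used per group, and segments at 10% or more of a library. Ighv1-74 and Ighv1-55 in non-BT cells, Ighv11-2 in B cells and the listed genes outside Ighv that are given by library were chosen after their values were seen. The members and all gene lists were chosen with earlier results of these data known. Alternatives were another pseudocount of 0.1, no filter, quantile normalization, scaling to non-immunoglobulin genes, array quality weights, a fit of the compared groups alone, a term for library name series, a replicate block, and leaving out libraries. The alternatives for folds of the share were chosen after seeing the data. One gene of the B cell marker list is not reported here and was left out of the marker sums.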

Additional observations from a re-analysis of the deposited data

Results flagged for a closer look

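Among 90 values tested for a single library far from the rest of its group, 9 stood out. The usual chance rate of about 1 in 20 assumes independent values picked without regard to the data, so it does not apply here. Every flagged segment was among those with a large share of some library, described above. Ighv5-4 held such a share in young wild-type B cell library 3, and Ighv1-54 in young wild-type T cell library 2. The 9 are therefore a description. Only the young groups of 4 libraries could be tested. In young homozygous animals, Ighv1-54 stood at 64.4 FPKM in B cell library 3 and at 7.97 FPKM in non-BT library 4. Ighv5-17 stood at 516 FPKM in young homozygous B cell library 4, and the summed Ighv share at 0.213% in young homozygous non-BT library 4. In young wild-type animals, library 2 was apart from the rest for Ighv1-54 with 522 FPKM, Ighv1-9 with 631 FPKM and Ighv7-1 with 709 FPKM in B cells, and for Ighv1-54 with 729 FPKM in T cells. Ighv5-4 stood at 3318 FPKM in young wild-type B cell library 3.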

How the results depend on the processing

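Of 593 alternative values for counts, summed shares, their folds and effective numbers, 512 stayed close to the given value and 81 moved. Counts and folds were judged by their ratio to the given value. A difference of share or effective number counted as close when it moved by no more than the SD between libraries. Under this wide margin a difference can change sign and still count as close. The difference between genotypes changed sign in 0 of 87 alternatives for young and 11 of 63 for old animals. All 11 are among the values counted as close. Of 1243 for named genes, 1035 kept their direction and side of the threshold, 185 lost the threshold and 23 gained it. The cause was not tested.

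Counts of called Ighv genes are given here. For the young genotype comparison, fitting the compared groups alone gave 20 for non-BT, 6 for T and 4 for B cells, and array quality weights gave 31, 5 and 4. Without a filter the non-BT count was 3, and without the Psmb9-labelled libraries it was 2. Within a preparation the only Psmb9-labelled library is young wild-type library 4. That fit therefore repeats the one without this library, and both are counted among the 24 or 23 alternatives of a gene. Without the old animals numbered 2, the counts were 19 for non-BT, 5 for T and 1 for B cells, and 2 in old B cells between genotypes. Without the Psmb9-labelled libraries 1 gene passed in old non-BT cells. For old against young homozygous animals, no filter gave 11 for T and 36 for non-BT cells. For old against young wild-type T cells, no filter gave 0, the compared groups alone 1, array quality weights 16 and leaving out the Psmb9-labelled libraries 1. For non-BT cells of the same comparison, a pseudocount of 0.1, no filter, the library name series as a term and leaving out the old animals numbered 2 each gave 0, the compared groups alone 1 and array quality weights 6. The difference between non-BT and B cells gave 1 with a pseudocount of 0.1 and 1 with quantile normalization.

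Leaving out 1 library at a time, the young genotype counts were 2 to 17 for non-BT, 0 to 3 for T and 0 to 2 for B cells. The old genotype counts were 0 to 1 in B cells and 0 to 1 in non-BT cells, and the interaction counts 0 to 4 in non-BT cells. Old against young gave 8 to 56 in homozygous T cells, 25 to 75 in homozygous non-BT cells, 0 to 1 in homozygous B cells, 0 to 17 in wild-type T cells and 0 to 4 in wild-type non-BT cells. The difference between non-BT and B cells gave 0 to 2. The young difference of summed share, homozygous minus wild type, was -1.16 to -0.864 percentage points for B, -0.760 to -0.601 for T and -0.709 to -0.504 for non-BT cells. The old differences changed sign, with ranges of -0.971 to 0.406 for B, -1.06 to 1.91 for T and -0.142 to 3.18 for non-BT cells. So did those of the effective number in old animals, at -3.55 to 19.97 for B, -12.4 to 6.04 for T and -14.7 to 3.63 for non-BT cells. Folds of the share, old over young, were 9.49 to 23.8 in homozygous T, 16.2 to 38.8 in homozygous non-BT and 2.197 to 4.398 in wild-type T cells.

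Multiplied by exon length, Ighv FPKM is a share of fragments. The young difference, homozygous minus wild type, was then -0.121 percentage points in B cells (0.152% and 0.273%), -0.0725 in T cells (0.0220% and 0.0946%) and -0.0687 in non-BT cells (0.0156% and 0.0843%).

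Deviations of 21 same-numbered pairs correlated with r between -0.0486 and 0.287, of which 12 were over 0.1, beside 1 of 54 other pairs. All pairs were over 0.1 in old B cells alone, so elsewhere the libraries were taken to share a number only. In old B and old T cells every library correlated best with its own number, and over all comparisons 31 of 42 did. With a replicate block, the young genotype counts were 13 for non-BT, 3 for T and 5 for B cells, and the old counts 0, 0 and 1, with 0 for all interactions. The age comparisons could not be fitted with the block, since the numbers are nested within age.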
